A study of Mus musculus with 23 samples.

Results

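Sprr1a encodes small proline-rich protein 1A. Its level was followed in primary mouse aorta endothelial cells, the cells that line the aorta, after 48 h in medium with 10% mouse plasma in place of serum. It was measured by 1 probe set, which is 1 of the 24704 named genes of the arrays, and it was chosen by its difference from wildtype plasma, the highest of all genes. The levels and differences that chose it are therefore given as a description, with no test. The cells were of 1 kind in every group, bought as a primary culture, and a genotype names the mice that gave the plasma, with C57BL/6J given as the strain. The 4 groups were plasma of ApoE-KO mice (lacking apolipoprotein E, 5 arrays), of ApoE-Stab1-KO mice (lacking also the scavenger receptor Stabilin-1, 6 arrays), of ApoE-Stab2-KO mice (lacking also Stabilin-2, 6 arrays) and of Wildtype mice (6 arrays). ApoE deficiency was shared by the 3 knockout groups, whose donors had been fed Western diet for 8 weeks. No diet is given for the wildtype donors, so donor genotype and diet cannot be told apart in any difference from wildtype plasma. The ages of the donors, and whether replicates came from separate cultures or separate donors, are not given in the labels, so errors and p-values measure only the spread between these arrays, which may be technical.

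Small proline-rich proteins are precursors of the cornified envelope, the shell of crosslinked protein that forms under the membrane of maturing keratinocytes. Transglutaminases join them through glutamine and lysine residues to involucrin, loricrin and other precursors, and many of the genes lie together in the epidermal differentiation complex. Outside skin, Sprr1a is known as a gene that injured neurons switch on during axon regrowth and that heart muscle cells switch on under stress and through cytokines that act on the receptor gp130. Promoters of SPRR genes are known to be driven in epithelium by AP-1 factors, which are dimers of FOS and JUN family proteins, together with ETS and KLF factors.

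The promoter of Sprr1a is shown with those of Sprr1b, its closest relative by name, and of Ivl (involucrin). Over all 23 arrays Ivl had the highest correlation with Sprr1a of the cornified envelope genes (r = 0.838). That r is set mainly by the gap between wildtype and knockout plasma. With group means subtracted Cdsn, another gene of the cornified layer, was closer to Sprr1a (r = 0.555, against 0.467 for Ivl). The sequences are from RefSeq on GRCm38.p6 and are 300 bases long, begin 250 bases before the transcription start and run 5′ to 3′ on the minus strand, and the capitals mark the AP-1 motif TGAGTCA on either strand. The regions are chr3:92485832-92486131 for Sprr1a, chr3:92438730-92439029 for Sprr1b and chr3:92573686-92573985 for Ivl.
Sprr1a: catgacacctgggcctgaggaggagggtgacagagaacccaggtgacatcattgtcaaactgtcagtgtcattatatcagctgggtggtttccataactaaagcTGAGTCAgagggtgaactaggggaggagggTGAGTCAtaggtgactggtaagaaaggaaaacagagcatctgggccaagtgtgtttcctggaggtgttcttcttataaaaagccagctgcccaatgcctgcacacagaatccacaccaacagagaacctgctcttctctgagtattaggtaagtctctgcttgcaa
Sprr1b: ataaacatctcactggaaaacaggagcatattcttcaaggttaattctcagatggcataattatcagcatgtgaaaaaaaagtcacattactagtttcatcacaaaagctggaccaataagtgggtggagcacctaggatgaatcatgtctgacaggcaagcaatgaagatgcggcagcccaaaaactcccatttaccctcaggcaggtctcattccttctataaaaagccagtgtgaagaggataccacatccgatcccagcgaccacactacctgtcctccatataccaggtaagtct
Ivl: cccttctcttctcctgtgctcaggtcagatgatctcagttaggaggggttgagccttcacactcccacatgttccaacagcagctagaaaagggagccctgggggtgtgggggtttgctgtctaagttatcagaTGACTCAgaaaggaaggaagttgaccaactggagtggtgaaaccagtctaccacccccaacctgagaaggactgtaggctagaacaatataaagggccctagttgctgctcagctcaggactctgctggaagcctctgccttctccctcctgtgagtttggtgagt

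The AP-1 motif stood at 2 places in the Sprr1a promoter, beginning 146 and 116 bases upstream of the start, both in the reading given. Ivl held it once, beginning 116 bases upstream and on the opposite strand, and Sprr1b held 0 copies. Of 32851 promoters of the same length, 5.2% held at least 1 copy and 0.222% held 2 or more. Further motifs were searched on both strands in the same windows. The ETS core GGAA stood at 3 places in Sprr1a, none of them overlapping an AP-1 motif, and it was in 96.0% of all promoters. A TATA box (TATAAAA) began 43 bases upstream in Sprr1a and 30 bases upstream in Sprr1b, and 5.48% of promoters held it. A metal response motif (TGCACNC or TGCGCNC, in 25.7% of promoters) began 18 bases upstream in Sprr1a. The Sprr1a window held 0 copies of the STAT motif TTCNNNGAA (8.3% of promoters), the cyclic AMP response motif TGACGTCA (1.79%), the amino acid response motif TGATGNAAN (3.95%) and the sterol response motif TCACNCCAC (1.24%). These matches describe the letters only.

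Levels are log2 values, on which a difference of 1 is a doubling, and errors after a level are SDs over arrays. With wildtype plasma the lowest Sprr1a level was 5.20, the median 5.45 and the highest 5.74 (n = 6). With ApoE-KO plasma the 5 arrays had 6.27, 6.73, 6.88, 6.71 and 6.54. With ApoE-Stab1-KO plasma the lowest level was 6.00, the median 6.37 and the highest 7.08 (n = 6). With ApoE-Stab2-KO plasma the lowest level was 6.35, the median 6.54 and the highest 6.83 (n = 6). All 17 knockout-plasma arrays lay above all 6 wildtype-plasma arrays, with 0.26 between the nearest arrays of the 2 sets. The 3 knockout groups overlapped one another over most of their range, as the plot of Sprr1a by array shows. A bulk measurement of this kind cannot tell apart more RNA per cell and more cells that make it.

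**Figure D1:**
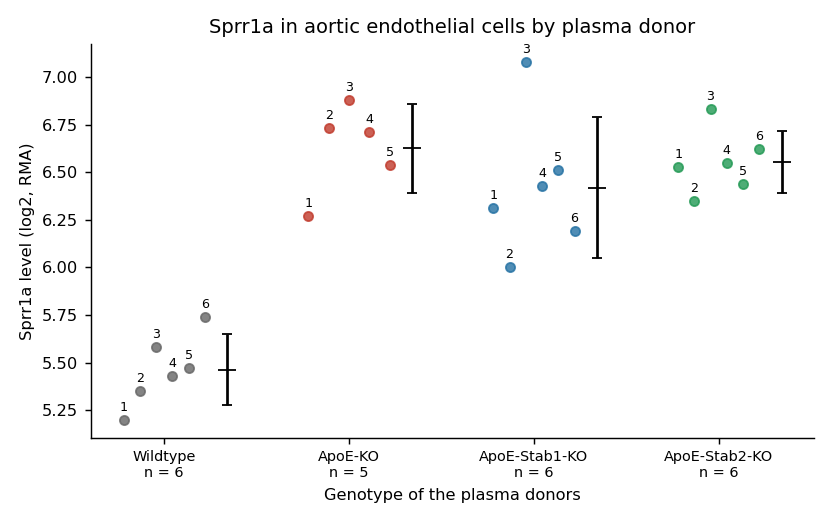
Sprr1a level (log2, vertical axis) in each array by genotype of the plasma donors (horizontal axis), with replicate numbers above the points and the mean ± SD as a bar beside each group. The 17 arrays with knockout plasma lie between 6.00 and 7.08, all above the 6 arrays with wildtype plasma (5.20 to 5.74).

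In order of the means, Sprr1a stood at 6.63 ± 0.23 (SD, n = 5) with ApoE-KO plasma, 6.55 ± 0.17 (n = 6) with ApoE-Stab2-KO plasma, 6.42 ± 0.37 (n = 6) with ApoE-Stab1-KO plasma and 5.46 ± 0.19 (n = 6) with wildtype plasma. The step from wildtype to the lowest knockout group exceeded the spread within groups, and neighbours among the knockout groups did not differ beyond it. The difference from wildtype plasma was 1.16 ± 0.14 (SE of the fit), or 2.24-fold, with ApoE-KO plasma. It was 0.96 ± 0.13, or 1.94-fold, with ApoE-Stab1-KO plasma, and 1.09 ± 0.13, or 2.13-fold, with ApoE-Stab2-KO plasma. These 3 differences share the wildtype arrays. Compared with ApoE-KO plasma, Sprr1a differed by -0.21 (95% interval -0.50 to 0.09) with ApoE-Stab1-KO plasma and by -0.07 (95% interval -0.36 to 0.22) with ApoE-Stab2-KO plasma, given without a test because ApoE-KO arrays took part in the choice of the gene. With 1 array left out the first of these ran from -0.34 (without ApoE-Stab1-KO replicate 3, the array with 7.08) to -0.12 (without ApoE-Stab1-KO replicate 2), and the second from -0.16 (without ApoE-KO replicate 1) to -0.01 (without ApoE-KO replicate 3). The comparison of the 2 double knockout plasmas used neither wildtype nor ApoE-KO arrays. Sprr1a held rank 1 in the differences of both from wildtype plasma, so their arrays may also have entered the choice. The p-values of this comparison carry that limit. Sprr1a was 0.13 ± 0.13 higher with ApoE-Stab2-KO than with ApoE-Stab1-KO plasma (95% interval -0.14 to 0.41), which did not pass (limma, Benjamini-Hochberg adjusted p = 0.772 over 24704 genes, and p = 0.433 in a two-sided exact permutation test over 924 splits of the 12 arrays). With 1 array left out that difference ran from 0.05 (without ApoE-Stab1-KO replicate 2, limma adjusted p = 0.937) to 0.27 (without ApoE-Stab1-KO replicate 3, 0.38), and it was 0.08 without ApoE-Stab2-KO replicate 3 (0.9) and 0.09 without ApoE-Stab1-KO replicate 6 (0.876).

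Sprr1a also varied among arrays of 1 group. Its SD within groups, pooled over the 4 groups, was 0.25, and 95.5% of genes had a smaller one, the median gene having 0.117. The widest group was ApoE-Stab1-KO plasma, where replicate 3 had 7.08 and replicate 2 had 6.00. Replicate 3 was the highest array with ApoE-KO (6.88), ApoE-Stab1-KO (7.08) and ApoE-Stab2-KO plasma (6.83), and the array next to the highest with wildtype plasma (5.58). The labels do not say whether a replicate number marks a shared culture, plate or day.

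In each comparison with wildtype plasma Sprr1a held rank 1 of 24704 genes by the size of the rise. After ApoE-KO plasma the genes next below were Gm9269 (0.90 ± 0.30, limma adjusted p = 0.22), Aldh1l2, a mitochondrial folate enzyme (0.82 ± 0.15), and the semaphorin gene Sema3c (0.74 ± 0.08). After ApoE-Stab1-KO plasma they were Mir669a-3 (0.95 ± 0.30, adjusted p = 0.189), Rps12-ps24 (0.85 ± 0.25, 0.149) and Gm9269 (0.72 ± 0.29, 0.325). After ApoE-Stab2-KO plasma they were Gm9257 (0.89 ± 0.36, 0.485), Gm9269 (0.81 ± 0.29, 0.386) and Trav9-2 (0.73 ± 0.21, 0.228). Apart from Aldh1l2 and Sema3c these followers did not pass the test, and their standard errors were above that of Sprr1a, as the plot of the highest differences shows. Sprr1a was the 1 gene with a difference of 2-fold or more after ApoE-KO plasma, where 26 genes differed by 1.5-fold or more in either direction, and again after ApoE-Stab2-KO plasma, where 9 did. After ApoE-Stab1-KO plasma 35 genes differed by 1.5-fold or more, and the 2 genes that differed by 2-fold or more were not Sprr1a. There its rank was 2 or 3 in 8 of the 12 runs that left out 1 array (3 without ApoE-Stab1-KO replicate 1 or 3) and 2 with array weights, and its difference was 0.83 without ApoE-Stab1-KO replicate 3.

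**Figure D2:**
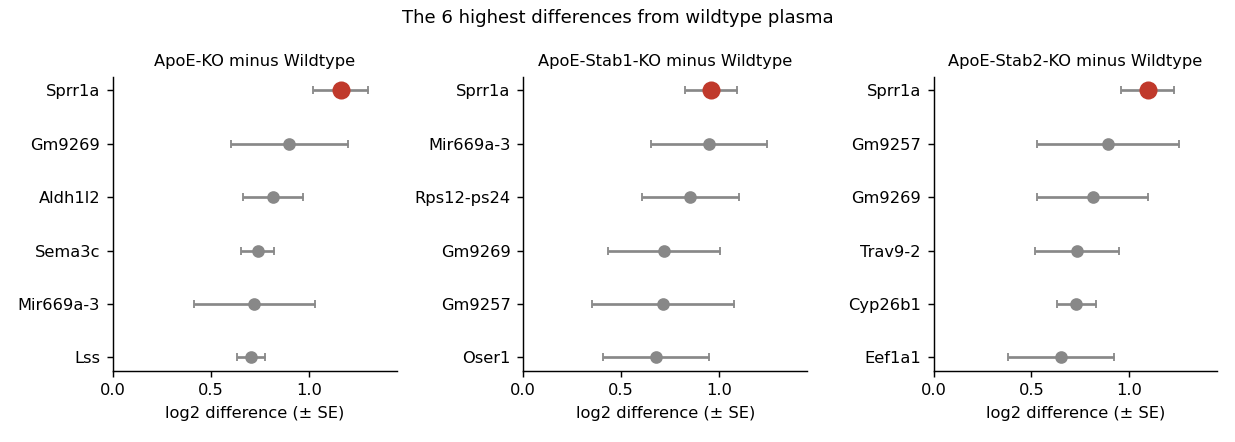
The 6 highest log2 differences from wildtype plasma (horizontal axis, bars are ± SE of the fit) in each of 3 comparisons, with Sprr1a in red. Sprr1a is highest in each panel, and for ApoE-Stab1-KO plasma its difference of 0.96 stands beside 0.95 for Mir669a-3.

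No other small proline-rich gene passed the test where Sprr1a was high. The arrays measured 13 other members of the family, and 0 were called in any comparison with wildtype plasma, with differences from -0.23 to 0.20 and a smallest adjusted p of 0.269 (limma). At an unadjusted p under 0.05 there were 0 of them for ApoE-KO, 1 for ApoE-Stab1-KO and 2 for ApoE-Stab2-KO plasma. Over all genes that threshold took 10.5%, 11.3% and 8.49% in these 3 comparisons, so the counts for the 13 lie near the background. Mean levels of these 13 lay between 2.73 and 4.12, all below 4.30, the median level of all genes, as far as brightness can be compared between probe sets. Sprr1b had 3.91, 3.55, 3.59, 3.54 and 3.56 with ApoE-KO plasma, and a lowest, median and highest level of 3.30, 3.57 and 3.83 with wildtype plasma. Its arrays overlapped between the groups, and the difference for ApoE-KO plasma was 0.07 ± 0.11 (limma adjusted p = 0.9). The largest differences from wildtype plasma were those of Sprr2b (-0.23), Sprr4 (0.20) and Sprr1b (0.175). The members of the family are similar in sequence, and how far their probes cross-hybridize was not analysed here.

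Among 201 measured genes tied to Sprr1a by family, envelope, gp130, transcription factor or injury lists, 5 rose and 1 fell with ApoE-KO plasma (2.99%, where 0.53% of all genes were called in that comparison, 0.34% as higher and 0.19% as lower). With ApoE-Stab1-KO plasma 1 rose and 3 fell (1.99%, against 0.364% of all genes, 0.174% higher and 0.19% lower), and with ApoE-Stab2-KO plasma 1 rose and 1 fell (0.995%, against 0.178% of all genes, 0.113% higher and 0.0648% lower). The calls are few in number. The median difference of the 201 genes was 0.01, 0.00 and 0.00, beside 0.00 for all genes in each comparison. At an unadjusted p under 0.05 there were 27, 37 and 37 of the 201, each a higher share than that of all genes (10.5%, 11.3% and 8.49%). The lists were chosen with earlier results of these data known. For ApoE-KO plasma 2 of the 201 genes passed when ApoE-KO replicate 2 was left out, and 1 when replicate 3 was. With wildtype replicate 1, 2 or 6 left out 3 passed. For ApoE-Stab1-KO plasma 2 passed when wildtype replicate 6 was left out, and for ApoE-Stab2-KO plasma 1 when its replicate 3, 5 or 6 or wildtype replicate 2, 3 or 5 was. The differences of single genes are drawn by list in the plot of genes tied to Sprr1a.

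**Figure D3:**
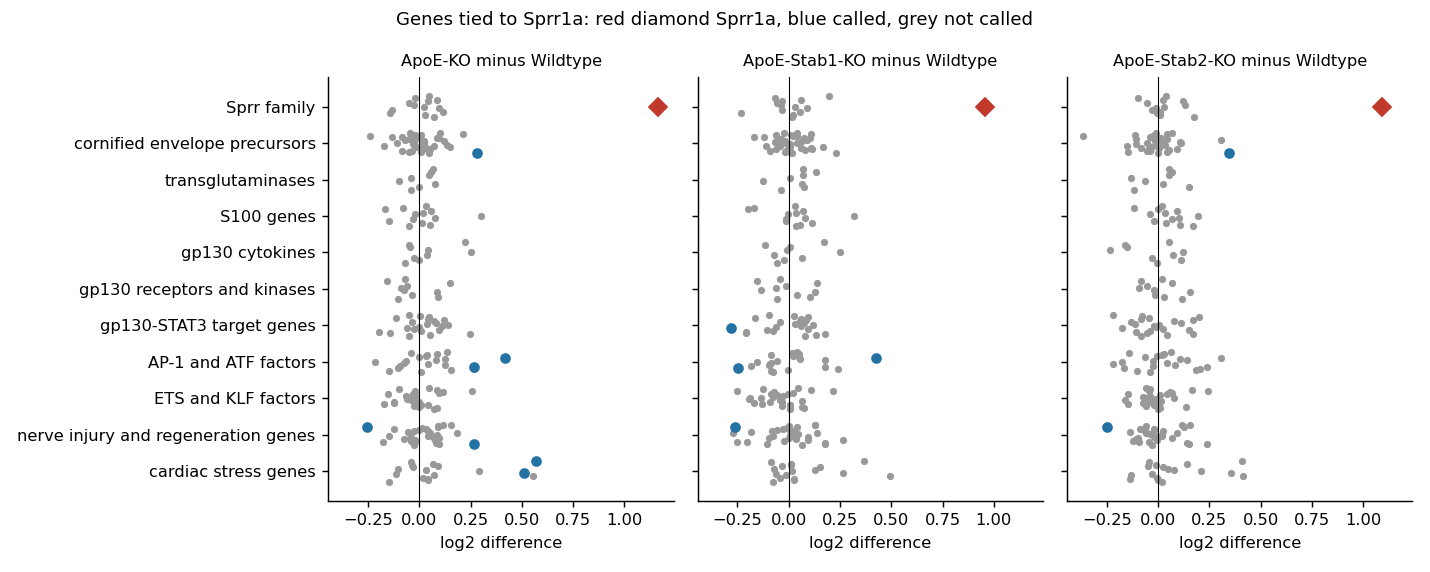
Log2 differences from wildtype plasma (horizontal axis) of the measured genes of 11 lists (rows) in 3 comparisons; the diamond is Sprr1a, blue points passed the test (limma adjusted p under 0.05) and grey points did not. Sprr1a lies at 0.96 to 1.16, and the highest of the other 201 genes lie at 0.57, 0.49 and 0.41.

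Of the cornified envelope precursors, 1 of 38 measured genes rose with ApoE-KO plasma (2.63%, against 0.53% of all genes), with 0 lower. The same gene rose with ApoE-Stab2-KO plasma (2.63%, against 0.178% of all genes), with 0 lower. With ApoE-Stab1-KO plasma 0 passed (0.364% of all genes). The list medians were 0.01 with ApoE-KO and -0.01 with ApoE-Stab2-KO plasma. The gene called was Ivl, the involucrin gene, whose protein is a scaffold of the envelope. Ivl had a lowest, median and highest level of 6.11, 6.26 and 6.33 with wildtype plasma, and 6.46, 6.53, 6.56, 6.52 and 6.48 with ApoE-KO plasma. With ApoE-Stab1-KO plasma it had 6.35, 6.43 and 6.63, and with ApoE-Stab2-KO plasma 6.45, 6.57 and 6.73. Each of the 17 knockout-plasma arrays lay above each wildtype-plasma array, by a narrow margin (6.35 against 6.33). For Sprr1a 0.26 lay between the 2 sets. The share of all genes that separate the arrays in this way was not counted. Ivl rose by 0.28 ± 0.06 with ApoE-KO plasma (limma adjusted p = 0.0316) and by 0.35 ± 0.06 with ApoE-Stab2-KO plasma (0.00546), and its difference of 0.23 ± 0.06 with ApoE-Stab1-KO plasma did not pass (0.0752). The ApoE-KO call was lost on leaving out its replicate 2, 3 or 4 or wildtype replicate 1, 3 or 5 (limma adjusted p 0.0526 to 0.09) and with trend and robust settings (0.0589), and the ApoE-Stab2-KO call held without any 1 array (highest adjusted p 0.0246). The other precursors with the smallest F-test p, the plakin gene Evpl (0.15 ± 0.06 with ApoE-KO plasma, 0.35), the late envelope gene Lce1e (0.01 ± 0.04, 0.958) and the keratinocyte gene Kprp (0.21 ± 0.06, 0.113), did not pass.

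The enzymes that crosslink these proteins did not pass either. Among 8 transglutaminase genes 0 were called in any comparison with wildtype plasma, and Tgm2, the tissue transglutaminase of endothelium, differed by 0.00 ± 0.07 with ApoE-KO plasma and by 0.15 ± 0.07 with ApoE-Stab2-KO plasma (limma adjusted p = 0.535). At an unadjusted p under 0.05 there were 0, 1 and 1 of the 8 (10.5%, 11.3% and 8.49% of all genes). Among 13 S100 calcium-binding genes of the epidermal differentiation complex 0 were called and 2 had an unadjusted p under 0.05 in each of the 3 comparisons, near the shares of all genes just given. S100a7a had the smallest p of the list, with differences of 0.30 ± 0.08 with ApoE-KO plasma (0.122) and 0.32 ± 0.08 with ApoE-Stab1-KO plasma (0.0745). The values of S100a6 were 0.08 ± 0.05, 0.08 ± 0.04 and 0.10 ± 0.04 in the 3 comparisons, none past the threshold.

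The gp130 pathway was looked at by role. None of 9 cytokine genes, which include Il6, Il11, Lif and Osm, was called in a comparison with wildtype plasma by limma, and 0, 0 and 2 had an unadjusted p under 0.05, where 10.5%, 11.3% and 8.49% of all genes did. None of 10 measured genes of receptors, Janus kinases and STAT factors was called, and 2, 3 and 1 had an unadjusted p under 0.05, against the same shares of all genes. The shared receptor subunit gene Il6st differed by 0.09 ± 0.05 with ApoE-KO plasma (limma adjusted p = 0.496) and the kinase gene Jak2 by 0.15 ± 0.06 (0.33). Of 22 target genes of the pathway, 0 passed with ApoE-KO or ApoE-Stab2-KO plasma (0.53% and 0.178% of all genes). With ApoE-Stab1-KO plasma 1 fell (4.55%, against 0.364% of all genes), the growth regulator Myc (-0.28 ± 0.06, 0.0452). Myc arrays overlapped with wildtype plasma (8.89 to 9.15 against 9.09 to 9.52). The Myc call was lost on leaving out ApoE-Stab1-KO replicate 1, 2, 3 or 6 or wildtype replicate 1, 2, 3, 4 or 6 (adjusted p 0.0683 to 0.108) and with array weights (0.0836). Timp1, an inhibitor of matrix proteases, Cebpb and Hif1a had differences between -0.21 and 0.15 and did not pass.

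Of 21 AP-1 and ATF factor genes, 2 rose and 0 fell with ApoE-KO plasma (9.52%, against 0.53% of all genes). With ApoE-Stab1-KO plasma 1 rose and 1 fell (9.52%, against 0.364% of all genes). With ApoE-Stab2-KO plasma 0 passed (0.178% of all genes), and 6 of the 21 had an unadjusted p under 0.05 (8.49% of all genes). Jun, a core AP-1 subunit, had 8.65, 8.86, 8.81, 8.91 and 9.04 with ApoE-KO plasma and a lowest, median and highest level of 8.48, 8.57 and 8.70 with wildtype plasma. The groups overlapped by 1 array on each side. Jun rose by 0.27 ± 0.06 with ApoE-KO plasma (limma adjusted p = 0.042), and its differences of 0.18 ± 0.06 with ApoE-Stab1-KO plasma (0.202) and 0.24 ± 0.06 with ApoE-Stab2-KO plasma (0.119) did not pass. The Jun call was lost on leaving out ApoE-KO replicate 2, 3, 4 or 5 or wildtype replicate 1, 2, 4, 5 or 6 (adjusted p 0.0605 to 0.112). Fosl1, the FOS family member FRA-1, did not pass, with differences of 0.27 ± 0.07 (0.0746), 0.24 ± 0.06 (0.102) and 0.20 ± 0.06 (0.287). Its relative Fosl2 went the other way: levels were 9.53 to 9.68 with ApoE-Stab1-KO plasma and 9.76 to 9.95 with wildtype plasma, without overlap. Fosl2 fell by 0.25 with ApoE-Stab1-KO plasma (limma adjusted p = 0.0121), with or without any 1 array (highest 0.0358), and its differences of -0.10 with ApoE-KO and -0.17 with ApoE-Stab2-KO plasma did not pass (0.431 and 0.181).

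Atf5, a factor of the amino acid stress response, rose by 0.42 ± 0.09 with ApoE-KO plasma (limma adjusted p = 0.0255) and by 0.43 ± 0.08 with ApoE-Stab1-KO plasma (0.0185), and its 0.31 ± 0.08 with ApoE-Stab2-KO plasma did not pass (0.183). Wildtype replicate 1 had 7.45 where the other wildtype arrays had 6.80 to 7.11, so the groups overlapped. The ApoE-KO call was lost on leaving out its replicate 1, 2 or 3 or wildtype replicate 2 or 6 (0.0548 to 0.106), and the ApoE-Stab1-KO call on leaving out wildtype replicate 6 (0.0571). None of 27 ETS and KLF factor genes passed in the 3 comparisons by limma, while 4, 8 and 4 had an unadjusted p under 0.05, where 10.5%, 11.3% and 8.49% of all genes did. Ets1, an ETS factor of endothelium, differed by -0.17 ± 0.04 (0.0725), -0.13 ± 0.04 (0.193) and -0.15 ± 0.04 (0.198). Klf6 differed by -0.25 ± 0.07 with ApoE-Stab1-KO plasma (0.134), Etv6 by -0.19 ± 0.06 (0.184) and Klf10 by 0.11 ± 0.05 (0.375).

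Of 31 genes known from nerve injury and regeneration, 1 rose and 1 fell with ApoE-KO plasma, and 1 fell with each of the double knockout plasmas. The shares called were 6.45%, 3.23% and 3.23%, against 0.53%, 0.364% and 0.178% of all genes. The gene that rose was Jun, and the gene that fell in all 3 was Smad1, a transcription factor of bone morphogenetic protein signalling. Smad1 had 8.87, 8.96 and 9.11 as lowest, median and highest level with wildtype plasma, and 8.80, 8.76, 8.62, 8.61 and 8.82 with ApoE-KO plasma, so it separated the groups as Sprr1a did but downward. It fell by 0.25 with ApoE-KO (limma adjusted p = 0.0195), by 0.26 with ApoE-Stab1-KO (0.0135) and by 0.25 with ApoE-Stab2-KO plasma (0.0249). The first call was lost on leaving out ApoE-KO replicate 3 or 4 or wildtype replicate 1 (0.0541 to 0.0765), and the last on leaving out ApoE-Stab2-KO replicate 3, 5 or 6 or wildtype replicate 1, 2, 3 or 5 (0.0529 to 0.0858). Atf3, Gap43, Gal and Sox11, which injured neurons raise together with Sprr1a, were not called.

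Among 17 measured cardiac stress genes, 2 rose with ApoE-KO plasma (11.8%, against 0.53% of all genes). With the double knockout plasmas 0 passed (0.364% and 0.178% of all genes), and 4 and 5 had an unadjusted p under 0.05 (11.3% and 8.49% of all genes). Thbs1, a matrix glycoprotein, had 6.43, 6.27, 6.37, 6.35 and 6.25 with ApoE-KO plasma and a lowest, median and highest level of 5.37, 5.78 and 6.09 with wildtype plasma, without overlap. It rose by 0.57 ± 0.11 (limma adjusted p = 0.0094), and its adjusted p was at most 0.0358 when any 1 array was left out. Ccn2, a matrix-associated growth factor, rose by 0.51 ± 0.11 (0.034), a call lost on leaving out ApoE-KO replicate 2, 3 or 4 or wildtype replicate 2, 3, 4 or 6 (0.0517 to 0.101). Ankrd1, a stretch-responsive gene of muscle and vessel cells, differed by 0.55 ± 0.13 (0.0518), 0.49 ± 0.12 (0.0801) and 0.41 ± 0.12 (0.253) and did not pass. Levels by array of 6 of these genes are drawn in the plot of genes called in at least 1 comparison.

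**Figure D4:**
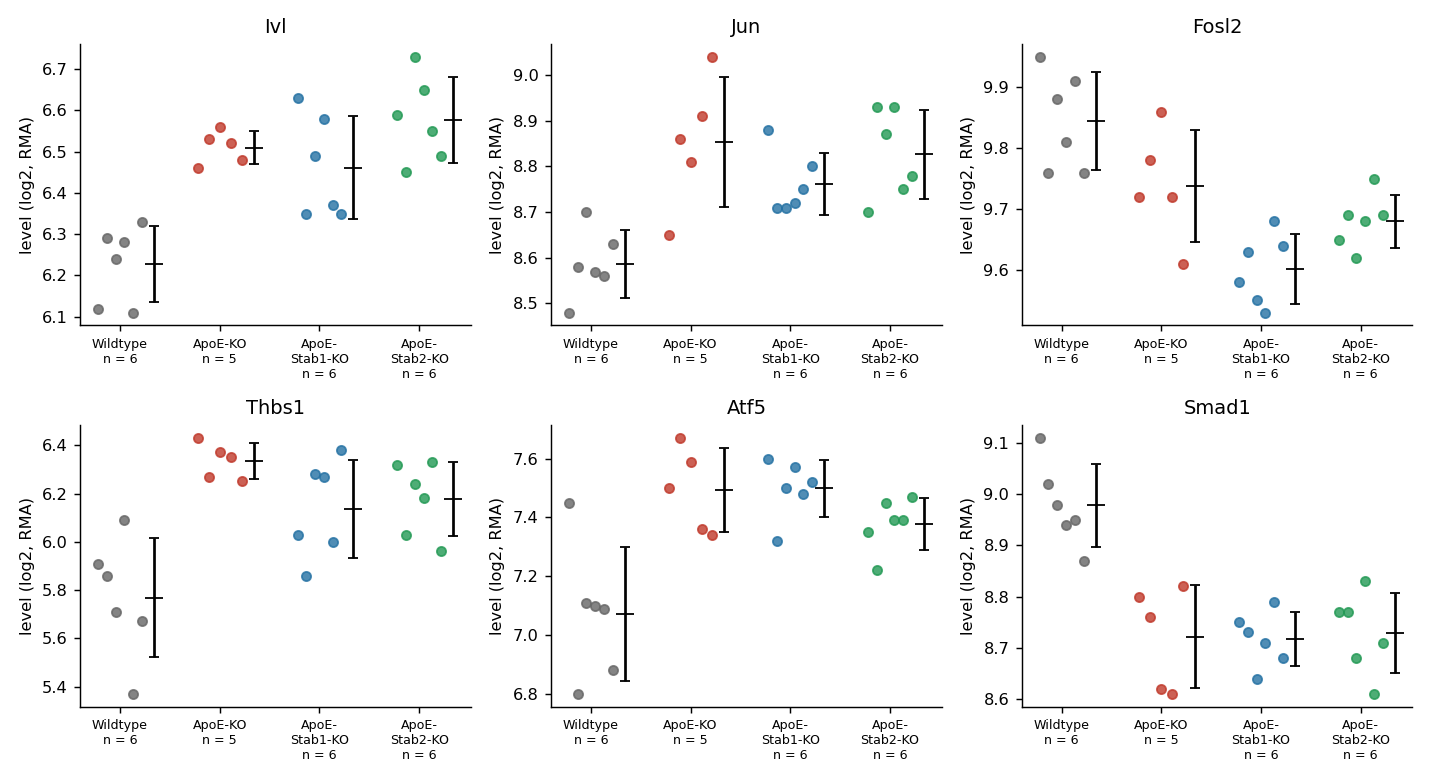
Levels (log2, vertical axes) of Ivl, Jun, Fosl2, Thbs1, Atf5 and Smad1 in each array by genotype of the plasma donors, with mean ± SD as a bar beside each group. Ivl and Smad1 separate the 6 wildtype-plasma arrays from all 17 knockout-plasma arrays, upward (Ivl, highest wildtype level 6.33, lowest knockout level 6.35) and downward (Smad1, 8.87 against 8.83).

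None of the 201 genes passed between knockout plasmas. For ApoE-Stab1-KO minus ApoE-KO plasma, 12 had an unadjusted p under 0.05, where 5.57% of all genes did, and 0 were called by limma, where 0.00405% of all genes were called. For ApoE-Stab2-KO minus ApoE-KO the numbers were 15 and 0 (0.0243% of all genes, 0.0121% in each direction), and for ApoE-Stab2-KO minus ApoE-Stab1-KO 28 and 0 (0.0486%, 0.0364% higher and 0.0121% lower). At the unadjusted threshold the shares of all genes in these last comparisons were 8.36% and 11%, so the counts for the 201 genes lie near the background.

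Markers were set beside these values. All 13 endothelial markers lay above the median level of all genes, and their mean level per array was 11.11 to 11.17 with wildtype, 10.95 to 11.14 with ApoE-KO, 10.99 to 11.15 with ApoE-Stab1-KO and 11.09 to 11.18 with ApoE-Stab2-KO plasma. Of 21 markers of keratinocytes and other epithelium 15 lay below the median level, among them the basal keratins Krt5 and Krt14, the adhesion genes Epcam and Cdh1 and the factor Trp63. The 6 above it were Krt8, Krt10, Krt19, Dsg1a, Sfn and Grhl3. The mean of these 21 was 4.02 to 4.08 with wildtype plasma, 4.06 to 4.12 with ApoE-KO, 4.01 to 4.11 with ApoE-Stab1-KO and 4.01 to 4.10 with ApoE-Stab2-KO plasma, so the groups overlapped where Sprr1a did not. One of them, the keratin gene Krt19, rose with ApoE-KO plasma (0.35 ± 0.06, limma adjusted p = 0.00362), also without any 1 array (highest 0.0205), and with ApoE-Stab1-KO plasma (0.26 ± 0.06, 0.0378), and its 0.23 ± 0.06 with ApoE-Stab2-KO plasma did not pass (0.119). Krt19 was the 1 marker of the 21 called with ApoE-KO and with ApoE-Stab1-KO plasma (4.76% each, against 0.53% and 0.364% of all genes). The ApoE-Stab1-KO call for Krt19 was lost on leaving out ApoE-Stab1-KO replicate 2, 3, 4 or 6 or wildtype replicate 1, 2, 4 or 6 (0.0605 to 0.0921). Of 7 smooth muscle markers 3 were above the median level (Acta2, Des and Smtn), and Myh11 and Cnn1 were among those below it. Of 7 fibroblast markers 2 were above (Pdgfra and Col1a1), and Dcn and Lum were among those below. Of 7 measured macrophage markers 1 was above (Cd68), and Ptprc, Adgre1 and Csf1r were among those below. There was no call in the smooth muscle, fibroblast and macrophage lists. The part of other cell types in the Sprr1a values was not tested.

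Genes were then ordered by how closely their values over arrays followed Sprr1a, as Pearson's r, which is a description and carries no p. Over all 23 arrays r is set mainly by the gap between wildtype and knockout plasma and is also shared through the common normalization, and the 5th and 95th percentiles of 24702 genes were -0.426 and 0.426. The 10 highest were Mt2, a zinc-binding metallothionein (0.876), Erg28, a scaffold of sterol synthesis enzymes (0.862), Sema3c (0.853), the vesicle sorting gene Vps33b (0.838), Ivl (0.838), the retinoic acid-induced receptor gene Gprc5a (0.829), the methionyl-tRNA synthetase Mars1 (0.825), the ubiquitin ligase component Dda1 (0.819), the serine synthesis enzyme Psat1 (0.816) and Cldnd1 (0.813). The 5 lowest were Ptprm, a receptor phosphatase of endothelial cell contacts (-0.909), the phospholipase Plcg1 (-0.869), the LIM cofactor Ldb2 (-0.868), Smad1 (-0.866) and the adhesion molecule gene Mcam (-0.865). Ptprm had 10.19 to 10.44 with wildtype plasma and 9.84 to 10.09 in the 17 knockout-plasma arrays, which did not overlap. Differences from wildtype plasma were smaller in all 15 than in Sprr1a, from 0.18 (Gprc5a) to 0.74 (Sema3c) among the highest with ApoE-KO plasma and from -0.35 (Ldb2) to -0.16 (Plcg1) among the lowest. Of the 8 highest genes with a promoter sequence, 2 held the AP-1 motif, Mt2 and Ivl, and of the 4 lowest 0 did (5.2% of all promoters). The metal response motif was in 4 of the same 8, Mt2, Erg28, Sema3c and Psat1, and in 3 of the 4 lowest (25.7% of all promoters). These counts are small and were not tested.

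The order changed when the group gap was taken away. With the mean of its group subtracted from each array, the 10 highest were Mt2 (0.793), the ribosomal oxygenase Riox1 (0.792), Zfp457 (0.78), the respiratory subunit gene Sdhc (0.776), the DNA repair gene Tdp1 (0.773), the urokinase receptor gene Plaur (0.77), Tal2 (0.759), the transcription elongation gene Nelfa (0.746), Gprc5a (0.742) and Erg28 (0.734). The 5 lowest were Calcrl, the adrenomedullin receptor of endothelium (-0.807), the Rac activator Prex2 (-0.777), the endothelial junction gene Heg1 (-0.774), Hmbox1 (-0.77) and the replication fork gene Timeless (-0.77). The 5th and 95th percentiles were -0.429 and 0.425 here. Mt2, Erg28 and Gprc5a were the 3 genes in both orders, while Sema3c had 0.244 and Mcam -0.274. Calcrl and Heg1 were low where Sprr1a was high within groups, while their differences from wildtype plasma ranged from -0.03 to 0.01.

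Part of this likeness rested on 2 arrays. ApoE-Stab1-KO replicates 3 and 2 had the largest deviations of Sprr1a. Without them r of the deviations was 0.702 for Mt2, 0.737 for Plaur, 0.59 for Gprc5a and 0.471 for Erg28. It was 0.0365 for Mars1 (0.538 with all arrays), -0.623 for Calcrl, -0.636 for Heg1 and -0.585 for Timeless. Here and below, the group means subtracted were still those of all arrays. In ApoE-Stab1-KO replicate 3, where Sprr1a was highest, Timeless had 7.43 against 7.74 to 7.83 in the other arrays of that group, Calcrl had 11.98 against 12.09 to 12.19, and Mt2 had 9.45 against 8.79 to 9.11. Over the 17 knockout-plasma arrays alone r was 0.802 for Mt2, 0.699 for Plaur, 0.768 for Gprc5a, 0.465 for Ivl, -0.865 for Calcrl and -0.802 for Timeless. When the mean of each replicate number was subtracted as well, r was 0.566 for Mt2, 0.743 for Plaur, 0.717 for Gprc5a, -0.712 for Calcrl and -0.584 for Timeless. The deviations are drawn in the plot of 6 genes against Sprr1a.

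**Figure D5:**
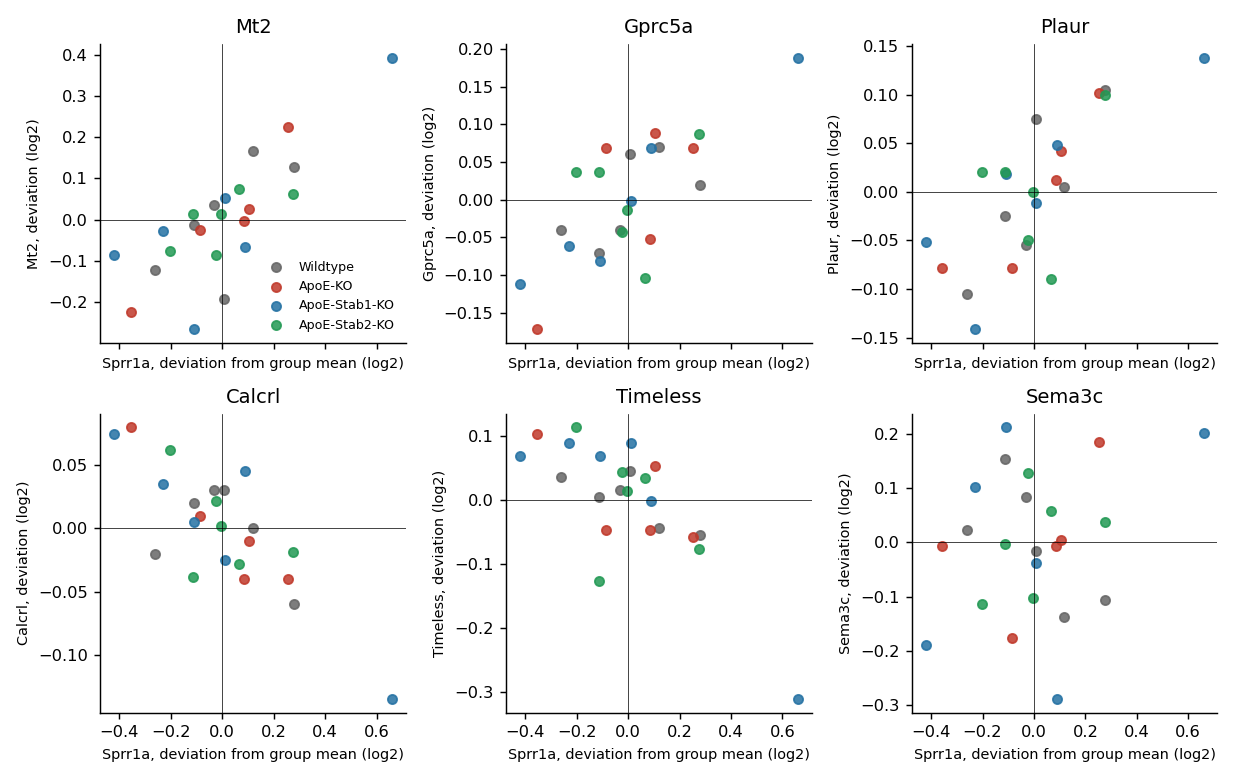
Deviation of each array from its group mean (log2) for Sprr1a (horizontal axes) and for Mt2, Gprc5a, Plaur, Calcrl, Timeless and Sema3c (vertical axes), coloured by plasma group. The points rise for Mt2 (r = 0.793), Gprc5a and Plaur, fall for Calcrl (r = -0.807) and Timeless, and scatter for Sema3c (r = 0.244), and the point at the far right is ApoE-Stab1-KO replicate 3.

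The endothelial markers had a median r with Sprr1a of -0.409 over 23 arrays and of -0.412 for deviations from group means (13 genes, of which 10 were below 0), where the median of all genes was 0.00 and -0.01. Without ApoE-Stab1-KO replicates 3 and 2 the median for deviations was -0.196, and with the mean of each replicate number also subtracted it was -0.107. In the first of these settings the gp130 receptors and kinases had a lower median (-0.253), and in the second the transglutaminases (-0.165). Values for deviations were -0.588 for Cldn5, the claudin of endothelial tight junctions, -0.522 for Vwf and -0.49 for Kdr, and 0.23 for Robo4, and without those 2 arrays the first 3 were -0.126, -0.354 and -0.101. Between groups, Cldn5 fell with ApoE-KO plasma (-0.27 ± 0.06, limma adjusted p = 0.0459), a call lost on leaving out ApoE-KO replicate 1, 2, 3 or 5 or any 1 of the 6 wildtype arrays (0.0555 to 0.151). Egfl7 fell with ApoE-KO (-0.27 ± 0.04, 0.00136) and ApoE-Stab1-KO plasma (-0.21 ± 0.04, 0.0122), and both calls held when any 1 array was left out (highest 0.0362). For deviations Egfl7 had r = -0.124 with Sprr1a. Of the 13 markers 2 were called with ApoE-KO plasma (15.4%, against 0.53% of all genes) and 1 with ApoE-Stab1-KO plasma (7.69%, against 0.364%). With ApoE-Stab2-KO plasma 0 were called (0.178% of all genes). All 13 lie above the median level of all genes. In a fit of only the genes above that level, the shares called were higher, 1.38%, 1.22% and 0.389% in the 3 comparisons. Differences were above 0 in 1, 6 and 4 of the 13, the highest being 0.43 with ApoE-Stab2-KO plasma. Among AP-1 and ATF factors the median r of deviations was 0.06 (21 genes, 10 of them below 0), from -0.475 for Atf2 and -0.409 for Jund to 0.477 for Fosl1 and 0.538 for Batf3, with 0.138 for Jun. Without the same 2 arrays that median was -0.06, and Fosl1 had 0.267 and Batf3 0.31. Among gp130-STAT3 targets it was -0.01 (22 genes), and among the other Sprr genes -0.13 (13 genes). Whether the spread of Sprr1a within groups and that of the endothelial markers share a source was not tested.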

How the data were processed

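The 23 arrays measured biotinylated cRNA from total RNA of the cells, labelled by an Affymetrix protocol per the labels' protocols. Per the submitters' processing notes the authors made the deposited log2 values with RMA (background correction, quantile normalization, probe set summary). Its version and the probe set definition are not given in sources used here. Values ran from 2.52 to 13.9 over 25428 probe sets, and the sorted values of all arrays agreed within 0.0019, so a shift common to all genes cannot be seen. Arrays correlated at r = 0.992 to 0.997, and their number limits the precision.

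Probe sets were named from the platform annotation: 24705 had 1 symbol, 0 several and 723 none, and the brighter probe set was kept for the 1 symbol on more than 1. Differences were fitted with limma 3.58.1 in R 4.3.3 on all 23 arrays with 1 mean per group (19 residual and 4.19 prior degrees of freedom), and p-values were adjusted by Benjamini-Hochberg over 24704 genes, with calls at an adjusted p under 0.05. The fit was tested on simulated data. The gene, the 11 lists with 210 other genes (9 not measured here) and the 5 marker lists were chosen with earlier results of these data known. Named were, per list, up to 4 genes with the smallest F-test p over the groups and every called gene, the 10 highest and 5 lowest genes by each measure of likeness (predicted, Riken, small RNA and olfactory receptor names left out), the 3 genes next below Sprr1a in each comparison with wildtype plasma, and Sprr1b; further genes named were picked with their values in view. Alternatives were renormalization, median centring, bright genes only, array weights, a block for the replicate number, trend and robust settings, single comparisons, each probe set as a feature and each array left out. Permutations used scipy 1.17.1, and figures matplotlib 3.10.9.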

Additional observations from a re-analysis of the deposited data

Results flagged for a closer look

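In 19 genes given by array, each of the 4 groups was checked for a highest or lowest array that stood apart from the rest of its group, by Dixon's test of the gap over the range. Of 76 groups 5 had one, and chance gives about 5% of groups. Sprr1a had none. Sprr1b in ApoE-KO replicate 1 was 3.91, next to 3.59. Ccn2 in ApoE-KO replicate 3 was 7.96, next to 7.52, and Fosl1 in wildtype replicate 1 was 9.38, next to 9.24. Krt19 in wildtype replicate 1 was 4.93, next to 5.07. Timeless in ApoE-Stab1-KO replicate 3, the array with the highest Sprr1a level, was 7.43, next to 7.74.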

How the results depend on the processing

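The 6 differences of Sprr1a were recomputed 117 times under these alternatives. Each stayed within 1 SD (0.25, within groups) of the value given or, for the 2 double knockout plasmas, on its side of the threshold and in its direction. Each probe set as a feature and single comparisons leave the group means of Sprr1a unchanged, and 1 left-out array moves a mean little. The count is therefore no measure of robustness. The difference from wildtype plasma ranged from 1.10 to 1.25 (ApoE-KO), 0.83 to 1.04 (ApoE-Stab1-KO) and 1.04 to 1.15 (ApoE-Stab2-KO) with 1 array left out. With the replicate number as a block it was 1.17 ± 0.11 (SE) for ApoE-KO, 0.96 ± 0.10 for ApoE-Stab1-KO and 1.09 ± 0.10 for ApoE-Stab2-KO plasma. These standard errors were smaller than those without the block, 0.14, 0.13 and 0.13. Over all genes, same-numbered arrays of different groups had correlations of deviations from -0.0958 to 0.106 (median 0.0121). Arrays with other numbers had -0.214 to 0.238 (median -0.00308), and 7 of 23 arrays correlated best with their own number. The labels do not say what a number shares, and the numbers were not taken as pairs in the main fit. Under the block the limma adjusted p was 0.0501 for Ivl, 0.0841 for Jun and 0.0914 for Ccn2 with ApoE-KO plasma. It was 0.074 for Myc with ApoE-Stab1-KO plasma.

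Counts of the related genes moved more. For ApoE-KO minus wildtype the 6 calls became 10 with array weights and 3 with only the arrays of the 2 groups, and 1 to 5 with 1 array left out. For ApoE-Stab1-KO the 4 calls became 0 with only those arrays and 2 to 5 with 1 array left out. For ApoE-Stab2-KO the 2 calls became 1 and 1 to 2. Fewer arrays leave fewer degrees of freedom. With only the genes above the median level fitted, the calls were 9, 6 and 2 in the 3 comparisons, where 1.38%, 1.22% and 0.389% of the fitted genes were called. Of the 15 genes most like or unlike Sprr1a over 23 arrays, 5 were again among the 15 by Spearman's rho, 6 without wildtype replicates 1 and 2, 3 over the 17 knockout-plasma arrays, 3 by deviations from group means and 0 with a replicate block added, the last 3 chosen after seeing the data. The cause was not tested.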
